A study of Mus musculus with 8 samples.

Results

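Genes that move calcium and magnesium in the distal nephron were examined in kidneys that had lost the transcription factor c-Maf. The set holds 10 genes, taken by name from the 55367 genes of the deposited count matrix: the channels *Trpv5*, *Trpv6*, and *Trpm6*, the calcium-binding proteins *Calb1*, *S100g*, and *Pvalb*, the exchanger *Slc8a1*, the receptor *Casr*, and the secreted products *Egf* and *Umod*. Each of the 10 passed the filter on low counts, which left 20149 genes to be tested. Whole kidneys of 4 c-MafΔTAM mice and 4 c-Maf fl/fl mice were compared by RNA-Seq, and each mouse was 1 replicate. All 8 mice were C57BL/6J animals with floxed *c-Maf* alleles, labeled as 8 weeks old, and both groups received tamoxifen (TAM), which the paper's phenotyping places at TAM(10d). The c-MafΔTAM mice, called Maf conditional KO in the labels, also carry *CAG-Cre-ER*TM, a TAM-activated Cre recombinase under a promoter that is active in nearly all cells. The deletion is therefore not limited to the kidney, and the c-Maf fl/fl mice, called Maf flox/flox in the labels and controls below, differ from them in lacking Cre as well as in keeping c-Maf.

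The distal nephron takes back the part of the filtered calcium and magnesium that hormones adjust. In the thick ascending limb, these ions leave the lumen between the cells, and CaSR, the calcium-sensing receptor, restrains that route when plasma calcium is high. In the distal convoluted and connecting tubules, they are taken up through the cells: calcium enters by TRPV5 (with TRPV6 as its close relative), is carried by the calbindins, and leaves by the sodium-calcium exchanger NCX1 and plasma membrane pumps, whereas magnesium enters by TRPM6, which EGF stimulates. The study asked what c-Maf does in adult kidneys, mainly in the proximal tubule, and these genes belong to the segments that follow it.

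Depth ranged from 16649129 to 22990257 counts per mouse, and mitochondrial genes took between 17.1% and 32.3% of them, the largest share in c-MafΔTAM mouse 1. Levels are given as CPM, counts scaled to a common library size by the TMM method. *Maf* itself was at 9.06, 34.5, 29.6, and 10.1 CPM in c-MafΔTAM mice 1 to 4 and at 305 to 379.9 CPM in the controls. *Xist*, which is transcribed from the inactive X chromosome, had 2 counts in c-MafΔTAM mouse 1, 6 in control mouse 3, and 22 in control mouse 4, against at least 17618 in the other 5 mice. The labels do not give the sexes. The protocol text in the labels names liver as the RNA source, although the tissue label is whole kidney: the thick limb cotransporter gene *Slc12a1* was at 1269.8 to 1856 CPM and the distal convoluted tubule cotransporter gene *Slc12a3* at 946 to 1607 CPM across the 8 mice. Fat genes were uneven, with 461 counts of *Ucp1* in control mouse 3, 80 in c-MafΔTAM mouse 4, and at most 12 in the other 6 mice.

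At a Benjamini-Hochberg adjusted *P* of 0.05 in edgeR's quasi-likelihood test, 0 of the 10 genes differed between genotypes, whereas 2.16% of all tested genes did (436 of 20149, with 0.586% higher and 1.58% lower in c-MafΔTAM mice). All adjusted *P* values below are from this test unless another tool is named, and log2 fold changes are c-MafΔTAM relative to c-Maf fl/fl mice. At an unadjusted *P* under 0.05, *Slc8a1* was higher (1 of 10, against 6.58% of all tested genes) and *Pvalb* and *Trpv5* were lower (2 of 10, against 7.44%). The genotypes did not overlap in *Slc8a1*, with every c-MafΔTAM mouse above every c-Maf fl/fl mouse, or in *Egf*, with every c-MafΔTAM mouse below. Such a separation, in either direction, was found in 9.79% of all tested genes. Other tools gave 0 to 2 of the 10 genes: DESeq2 called *Slc8a1* and *Pvalb* (4.40% of all genes it tested), quantile normalization with limma-trend called *Slc8a1* (2.00%), and edgeR's exact test called none of them (1.91%). With log2 *Xist* as a covariate, which raised the calls to 6.82% of all tested genes, *Slc8a1* and *Trpv5* passed. Results for these genes therefore depended on the test, and the values of each mouse are given below. In whole-kidney RNA, fewer cells of a type and less RNA per cell cannot be told apart.

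**Figure D1:**
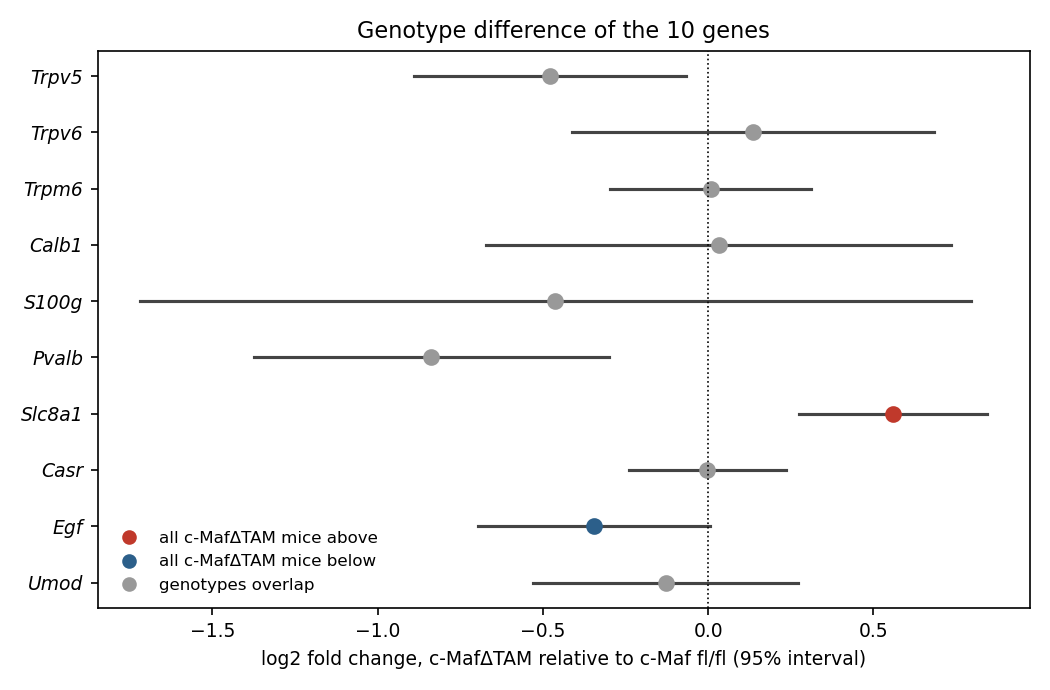
Log2 fold change of each of the 10 genes, c-MafΔTAM relative to c-Maf fl/fl mice (points), with its 95% interval (lines), from edgeR's quasi-likelihood test on 4 mice per genotype. *Slc8a1* lay highest at 0.56 with no overlap between genotypes, *Pvalb* lowest at -0.84, and the interval of *S100g* was the widest, from -1.72 to 0.79.

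Because the deleted factor binds Maf recognition elements (MAREs), the promoter windows of these genes were searched for their letters. RefSeq windows from 250 bases before to 50 bases after each transcription start (GRCm38.p6) were matched for 9 of the 10 genes, and *Calb1* was not matched. The half-MARE letters TGCTGA, searched on both strands (reverse complement TCAGCA), were present in 4 of the 11 windows of these 9 genes (the window of *Trpv5*, both windows of *Pvalb*, and 1 of the 2 windows of *Egf*) and in 19.5% of 32851 windows of the same length. The full palindromes of the TRE-type and CRE-type MARE, which contain the half-MARE letters, were each in 0.00609% of all windows and in none of the 9 genes. The same held for the direct repeat of a vitamin D response element (GGTCA repeated after a gap of 4 bases), which 0.0457% of all windows held. The windows of the 3 genes with the half-MARE letters are shown with that of *Slc8a1*, the gene of the set with the smallest *P*, whose window held none of these letters. The windows of *Trpv6*, *Trpm6*, *S100g*, *Casr*, and *Umod*, which are not shown, held none either. Capitals mark the half-MARE letters, and sequences run 5′ to 3′ on the gene's own strand, the minus strand in all 4. A match is a string of letters and was not tested as a binding site.
Trpv5 (chr6:41680674-41680973): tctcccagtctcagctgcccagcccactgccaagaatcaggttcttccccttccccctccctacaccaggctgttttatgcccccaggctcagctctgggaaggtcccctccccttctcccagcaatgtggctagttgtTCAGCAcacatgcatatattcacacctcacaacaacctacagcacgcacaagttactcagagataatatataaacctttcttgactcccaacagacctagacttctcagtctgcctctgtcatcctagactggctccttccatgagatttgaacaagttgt
Pvalb (chr15:78206351-78206650): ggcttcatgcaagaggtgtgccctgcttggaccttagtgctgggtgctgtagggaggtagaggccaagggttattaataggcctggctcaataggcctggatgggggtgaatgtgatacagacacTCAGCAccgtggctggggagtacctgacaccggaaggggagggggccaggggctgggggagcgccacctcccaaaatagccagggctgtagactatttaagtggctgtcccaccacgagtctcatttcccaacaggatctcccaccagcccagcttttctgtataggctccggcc
Egf (chr3:129755273-129755572): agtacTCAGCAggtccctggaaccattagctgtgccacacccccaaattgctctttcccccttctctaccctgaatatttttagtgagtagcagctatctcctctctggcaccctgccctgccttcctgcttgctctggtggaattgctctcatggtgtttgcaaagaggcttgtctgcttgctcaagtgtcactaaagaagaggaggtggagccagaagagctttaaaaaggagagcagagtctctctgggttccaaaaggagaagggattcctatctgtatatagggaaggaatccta
Slc8a1 (chr17:81738338-81738637): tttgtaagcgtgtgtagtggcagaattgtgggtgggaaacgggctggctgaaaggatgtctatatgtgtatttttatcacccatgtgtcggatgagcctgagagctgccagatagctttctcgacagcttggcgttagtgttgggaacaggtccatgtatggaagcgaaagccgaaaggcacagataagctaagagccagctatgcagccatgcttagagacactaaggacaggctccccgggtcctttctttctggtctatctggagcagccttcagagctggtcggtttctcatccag

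Relative to the start site, the match began at -111 in *Trpv5*, at -125 in *Pvalb*, and at -245 in *Egf*. *Pvalb* and *Egf* each have another start, and the window around it held the letters at -71 in *Pvalb* and did not hold them in *Egf*. The windows of *Trpv6*, *Trpm6*, *S100g*, *Casr*, *Umod*, and *Slc8a1* held none.

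*Trpv5* (chromosome 6 of GRCm38, 41652173 to 41680769, minus strand) encodes the calcium channel of the luminal membrane in the late distal convoluted and connecting tubules. It was at 10.6, 19.7, 18.1, and 14.2 CPM in c-MafΔTAM mice 1 to 4 and at 23.6, 25.7, 18.1, and 19.6 CPM in control mice 1 to 4, on 208 to 570 counts. The 2 highest values were both in c-Maf fl/fl mice and the 2 lowest both in c-MafΔTAM mice, but c-MafΔTAM mice 2 and 3 reached the range of the controls. Means were 15.6 ± 4.07 and 21.8 ± 3.52 CPM (SD, n = 4 per genotype), a log2 fold change of -0.48 (standard error 0.187, 95% confidence interval -0.89 to -0.07, adjusted *P* = 0.278). The controls with low *Xist*, mice 3 and 4, were also the lower 2 controls. Among the 5 mice with high *Xist*, c-MafΔTAM mice were at 14.2 to 19.7 CPM and controls at 23.6 and 25.7 CPM; among the 3 with low *Xist*, the c-MafΔTAM mouse was at 10.6 CPM and the controls at 18.1 and 19.6 CPM. The genotypes did not overlap within either *Xist* class, which was so in the same direction for 3 of the 10 genes (also *Slc8a1* and *Egf*) and for 20.6% of all tested genes, with 1 c-MafΔTAM mouse in the low class. With *Xist* as a covariate, the log2 fold change was -0.59 (edgeR, adjusted *P* = 0.00437), and in the mice with high *Xist* alone it was -0.51 (adjusted *P* = 0.0587).

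*Trpv6* (chromosome 6, 41620624 to 41636405, minus strand), the neighboring gene for the second epithelial calcium channel, was the least abundant of the 10. It was at 1.83, 2.31, 1.72, and 1.79 CPM in c-MafΔTAM mice and at 1.72, 2.30, 1.67, and 1.23 CPM in the controls, with 21 to 51 counts per library. These values overlapped fully. The log2 fold change was 0.14 (95% confidence interval -0.41 to 0.68, adjusted *P* = 0.863). *Trpv5* and *Trpv6* shared 28 of their 36-base transcript sequences, 0.864% of those of *Trpv5* and 0.694% of those of *Trpv6*, so few reads could have been assigned to the wrong gene of the pair.

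*Trpm6* (chromosome 19, 18749983 to 18892511, plus strand) encodes the magnesium channel of the distal convoluted tubule. It was at 33.1, 45.3, 41.5, and 40.0 CPM in c-MafΔTAM mice 1 to 4 and at 40.7, 46.5, 42.2, and 29.6 CPM in control mice 1 to 4. The lowest value of all was in a control. Means of 40.0 ± 5.11 and 39.8 ± 7.20 CPM (SD, n = 4 per genotype) gave a log2 fold change of 0.01, with a 95% confidence interval of -0.30 to 0.31 and an adjusted *P* of 0.988.

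The calbindin genes were spread widely among c-MafΔTAM mice. *S100g* (chromosome X, 162961992 to 162964599, minus strand), which encodes calbindin-D9k, was at 62.4, 296, 314, and 108 CPM in c-MafΔTAM mice 1 to 4 and at 302, 301, 218, and 255 CPM in control mice 1 to 4. c-MafΔTAM mice 1 and 4 lay far below every control, and c-MafΔTAM mice 2 and 3 lay within or just above the control range. *Calb1* (chromosome 4, 15881264 to 15908064, plus strand), which encodes calbindin-D28k, was at 180.0, 387, 415, and 179 CPM in c-MafΔTAM mice and at 278, 289, 321, and 248 CPM in the controls. Here c-MafΔTAM mice 1 and 4 were below all controls and mice 2 and 3 above all controls, so the genotype means, 290.4 ± 128 and 284 ± 30.2 CPM (SD, n = 4 per genotype), were alike while no c-MafΔTAM mouse fell in the control range. The log2 fold change was 0.03 for *Calb1* (95% confidence interval -0.67 to 0.73, adjusted *P* = 0.978) and -0.46 for *S100g* (-1.72 to 0.79, adjusted *P* = 0.769). For *S100g*, single mice moved the value, to -0.17 without c-MafΔTAM mouse 1, -0.26 without mouse 4, -0.73 without mouse 2, and -0.79 without mouse 3. The highest c-MafΔTAM value was 5.04 times the lowest for *S100g* and 2.32 times the lowest for *Calb1*, against 1.39 and 1.30 times among controls.

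As a coefficient of variation, *S100g* was at 65.8% in c-MafΔTAM and 15.0% in the controls, and *Calb1* at 44.2% and 10.6%. Among 17484 genes with at least 1 CPM on average, the median was 14.5% in c-MafΔTAM and 14.4% in the controls, and 98.7% and 94.9% of these genes varied less than *S100g* and *Calb1* in c-MafΔTAM mice. In the controls, 52.6% and 35.3% did. *Pvalb* had a spread near that of *Calb1*, at 43.5% in c-MafΔTAM mice and 11.9% in the controls, and *Egf* was at 23.8% and 4.61% and *Umod* at 25.8% and 12.3%. The coefficient was larger in c-MafΔTAM mice in 7 of the 10 genes and smaller in *Trpv6*, *Trpm6*, and *Casr*. The share of all genes with a larger coefficient in c-MafΔTAM mice was not counted. Single c-MafΔTAM mice stood apart in *Egf* and *Umod* (mouse 1, at 947 and 1648 CPM) and in *Pvalb* (mouse 3, at 9.26 CPM). Whether the spread differs between genotypes was not tested.

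The c-MafΔTAM mice with low calbindin levels were those with the least remaining *Maf*, 178 and 187 counts in mice 1 and 4 against 671 and 533 in mice 2 and 3. Both were below mice 2 and 3 in 7 of the 10 genes (*Trpv5*, *Trpm6*, *Calb1*, *S100g*, *Pvalb*, *Slc8a1*, and *Casr*) and above both in 0. Over all tested genes, the same order was found in 18.3% and the opposite order in 15.4%. These are 4 mice, so the order is a description. c-MafΔTAM mouse 1 also had low *Xist* and the largest mitochondrial share, and mouse 4 had high *Xist*, 18.7% mitochondrial counts, and some fat gene counts. The part of these features in the order was not tested.

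Calbindins respond to vitamin D. The genes of the enzymes that make and break down its active form had the same order among c-MafΔTAM mice, which 18.3% of all tested genes had. *Cyp24a1*, which encodes the 24-hydroxylase that inactivates it, was at 0.458, 16.9, 13.7, and 0.758 CPM in c-MafΔTAM mice 1 to 4 (9, 330, 247, and 14 counts) and at 98.2, 38.6, 70.6, and 49.6 CPM in control mice 1 to 4. *Cyp27b1*, which encodes the 1α-hydroxylase, was at 0.560, 5.19, 3.77, and 0.812 CPM in c-MafΔTAM mice and at 14.8, 28.4, 25.3, and 15.0 CPM in the controls. All c-MafΔTAM mice were below all controls in both genes, and mice 1 and 4 were the lowest. Neither passed the threshold, with log2 fold changes of -3.01 for each (standard errors 1.05 and 0.669, adjusted *P* = 0.283 and 0.088); Among the other tools, DESeq2 called *Cyp27b1* and edgeR's exact test called both. *Vdr*, the vitamin D receptor gene, was at 240.5 ± 43.9 and 233 ± 54.7 CPM (SD, n = 4 per genotype), a log2 fold change of 0.05 (adjusted *P* = 0.943). c-MafΔTAM mice 2 and 3 were below all controls in both enzyme genes and above all controls in *Calb1*. The part of vitamin D in the calbindin levels was not tested.

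**Figure D2:**
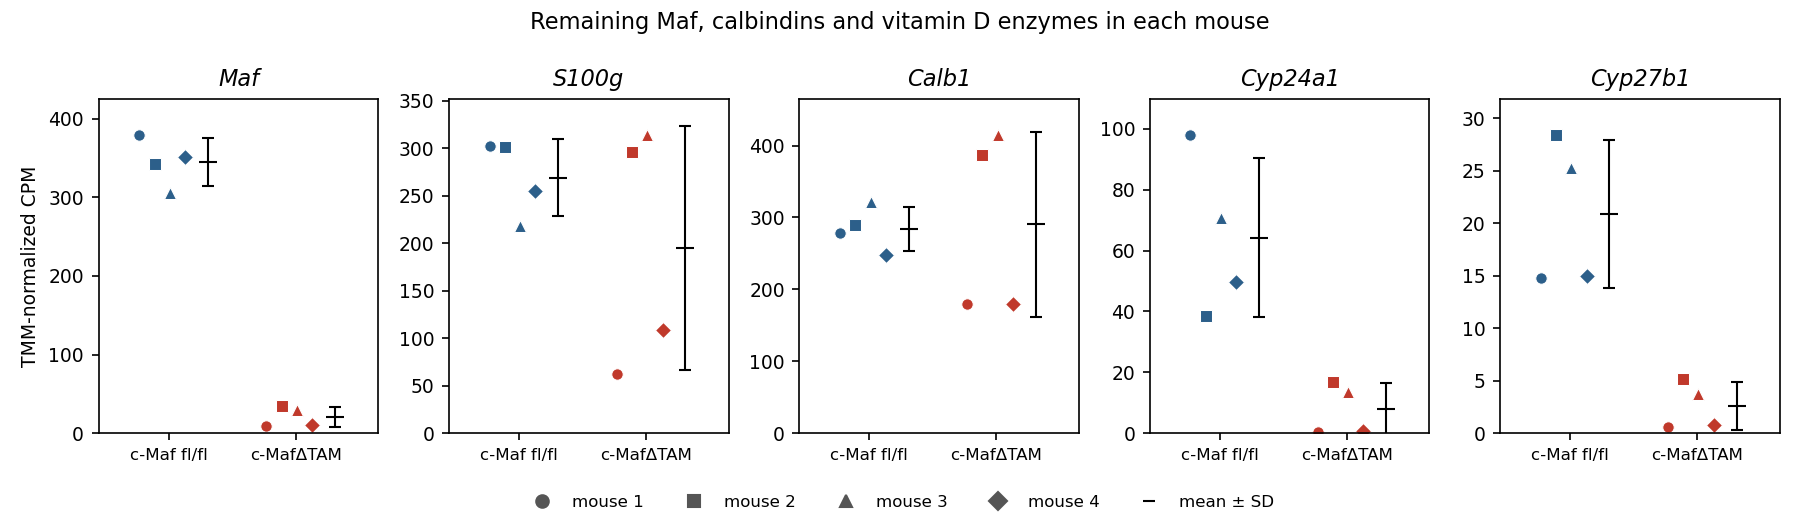
TMM-normalized CPM of *Maf*, the calbindin genes *S100g* and *Calb1*, and the vitamin D enzyme genes *Cyp24a1* and *Cyp27b1* in each mouse (symbols by mouse number) with the mean ± SD of 4 mice per genotype. c-MafΔTAM mice 1 and 4 are the lowest of their group in each of the 5 panels, and *S100g* there is at 62.4 and 108 CPM, below the 296 and 314 CPM of mice 2 and 3.

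*Pvalb* (chromosome 15, 78191114 to 78206400, minus strand) encodes parvalbumin, a cytosolic calcium buffer of the early distal convoluted tubule. It was at 4.48, 4.83, 9.26, and 3.95 CPM in c-MafΔTAM mice 1 to 4 and at 8.63, 11.4, 10.5, and 9.62 CPM in control mice 1 to 4, on 73 to 253 counts. A single mouse, c-MafΔTAM mouse 3, overlapped the controls, and the other 3 were below all of them. Means were 5.63 ± 2.45 and 10.04 ± 1.19 CPM (SD, n = 4 per genotype). The log2 fold change of -0.84 (standard error 0.245, 95% confidence interval -1.38 to -0.30) was the largest of the 10 in size, and its adjusted *P* was 0.126. DESeq2 gave the same fold change with an adjusted *P* of 0.0312. Without c-MafΔTAM mouse 3, the quasi-likelihood test gave -1.18 with an adjusted *P* of 0.00649. That fit leaves out the only mouse that overlapped, so it is not separate evidence of a decrease. The other fits with 1 mouse left out gave adjusted *P* values from 0.158 to 0.296, and the mice with high *Xist* alone gave 0.362. Skeletal muscle also makes parvalbumin. Of 6 listed muscle marker genes, the 3 that were tested (*Acta1*, *Myh1*, and *Mylpf*) summed to 1.32 to 3.71 CPM in c-MafΔTAM and 1.93 to 3.29 CPM in the controls, and the fast myosin gene *Myh4* had 0 counts in every library.

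*Slc8a1* (chromosome 17, 81373105 to 81738377, minus strand) encodes NCX1, the exchanger that moves calcium out of the cell on the blood side. It was at 668, 801, 812, and 540.5 CPM in c-MafΔTAM mice 1 to 4 and at 479, 516, 496, and 424 CPM in control mice 1 to 4. Every c-MafΔTAM mouse was above every control, including mouse 4, whose calbindins were low. The means of 706 ± 128 and 479 ± 39.5 CPM (SD, n = 4 per genotype) correspond to 1.47-fold, or a log2 fold change of 0.56 (standard error 0.131, 95% confidence interval 0.27 to 0.84). Its adjusted *P* of 0.0515 was just outside the threshold. The adjusted *P* was 0.00433 with DESeq2, 0.0248 with quantile normalization and limma-trend, 0.0619 with edgeR's exact test, and 0.205 among the 5 mice with high *Xist*, and it ranged from 0.00311 to 0.205 over all alternatives run. The log2 fold change stayed between 0.48 and 0.67 in each of them. Reads on 1.62% of its exonic bases, shared with *Gm11096* and *Gm50044*, were not counted.

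*Casr* (chromosome 16, 36493696 to 36562141, minus strand) was the steadiest of the 10 among c-MafΔTAM mice. It was at 121, 149, 149, and 141 CPM in c-MafΔTAM mice 1 to 4 and at 139, 166, 124, and 131 CPM in control mice 1 to 4, values that overlapped. The 95% confidence interval of its log2 fold change, -0.24 to 0.23 (adjusted *P* = 0.996), was also the narrowest of the set.

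*Egf* (chromosome 3, 129677565 to 129755316, minus strand), whose product is shed by the distal convoluted tubule and thick limb and stimulates TRPM6, was at 947, 1711, 1569, and 1621 CPM in c-MafΔTAM mice 1 to 4 and at 1807, 1916, 1947, and 1767 CPM in control mice 1 to 4. All c-MafΔTAM mice were below all controls, mouse 1 by far and the others by a small margin. Means were 1462 ± 348 and 1859 ± 85.7 CPM (SD, n = 4 per genotype), a log2 fold change of -0.35 (standard error 0.160, 95% confidence interval -0.70 to 0.00, adjusted *P* = 0.363). Without c-MafΔTAM mouse 1, it was -0.18 (adjusted *P* = 0.382). *Egf* shares 9.82% of its exonic bases with *6330410L21Rik* and *Gm42697*, and reads there were not counted. Its receptor gene *Egfr* was lower in c-MafΔTAM mice, at 85.5 ± 5.20 and 119 ± 11.97 CPM (SD, n = 4 per genotype; log2 fold change -0.47, adjusted *P* = 0.0186), with no overlap between genotypes. That call held in 5 of 8 fits that each left out 1 mouse.

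*Umod* (chromosome 7, 119462711 to 119479282, minus strand) encodes uromodulin, the most abundant protein of normal urine and a product of the thick limb. It was at 1648, 2866, 2644, and 3196 CPM in c-MafΔTAM mice 1 to 4 and at 2999, 3169, 2784, and 2362 CPM in control mice 1 to 4. c-MafΔTAM mouse 1 was the lowest and mouse 4 the highest of all 8, so the genotypes overlapped. Its log2 fold change was -0.13 (95% confidence interval -0.53 to 0.27, adjusted *P* = 0.816), and without c-MafΔTAM mouse 1 it was 0.04. Reads on 19.5% of its exonic bases, shared with *Gm44588*, were not counted. *Hpn*, which encodes hepsin, the protease that releases uromodulin, was at 214 ± 6.76 CPM in c-MafΔTAM and 272 ± 30.2 CPM in the controls (SD, n = 4 per genotype; log2 fold change -0.34, adjusted *P* = 0.0956), without overlap.

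**Figure D3:**
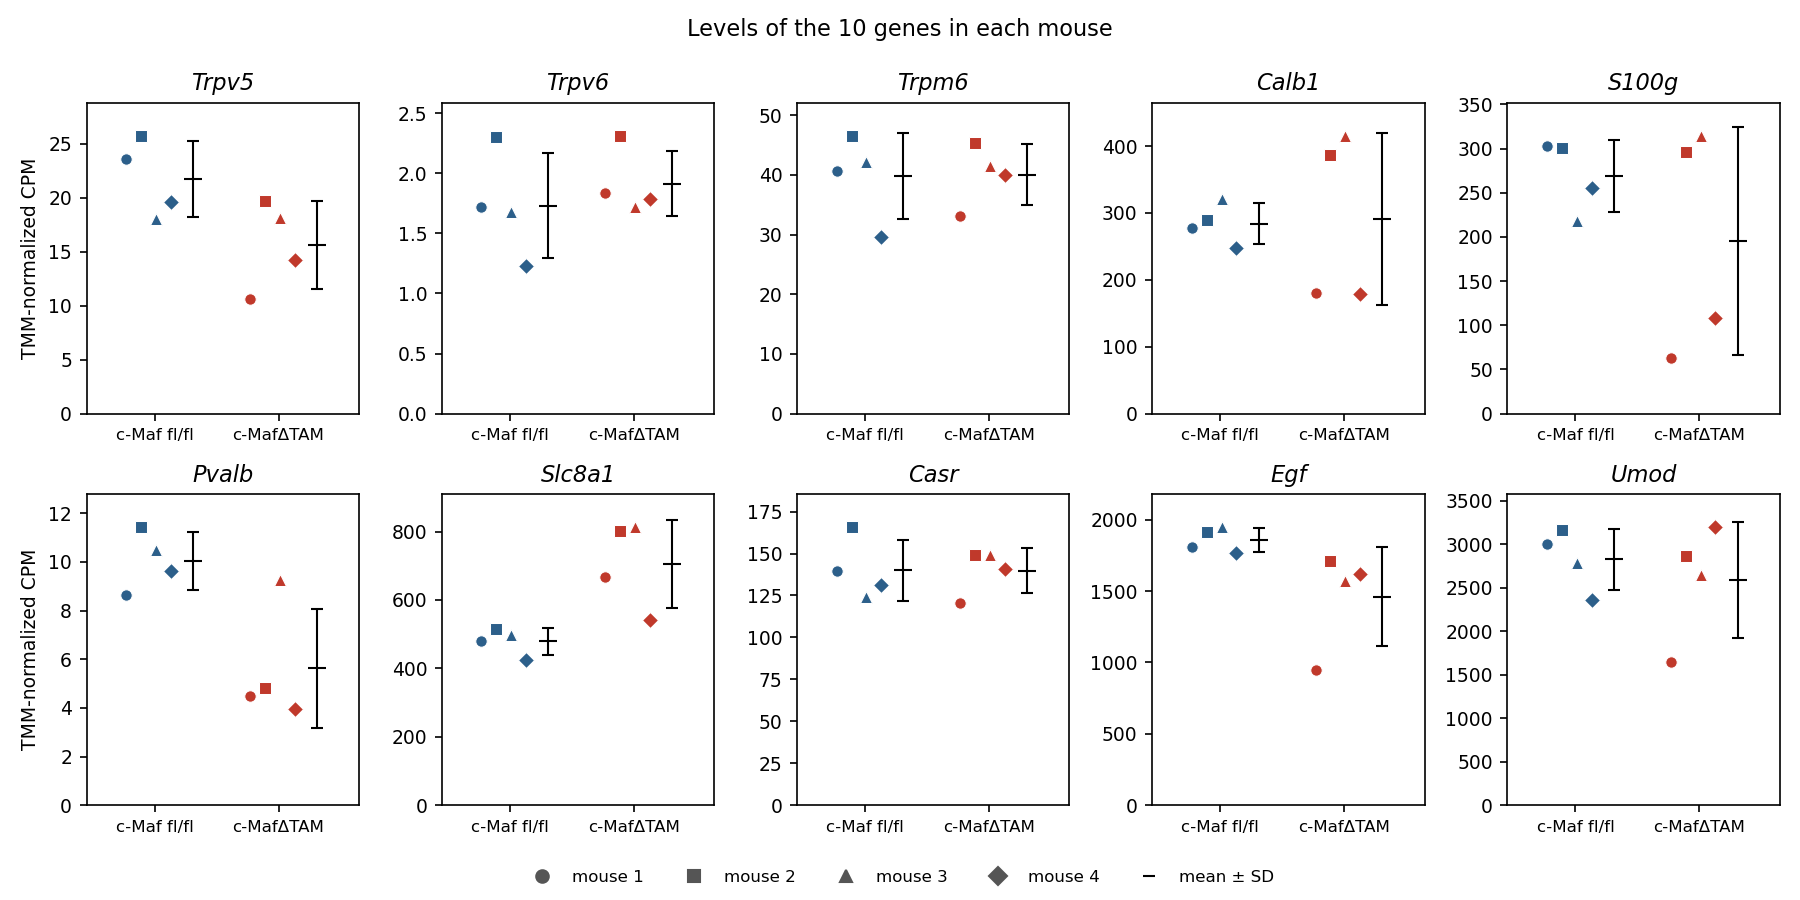
TMM-normalized CPM of the 10 genes in each mouse (symbols by mouse number), with the mean ± SD of 4 mice per genotype beside the points. *Slc8a1* and *Egf* separate the genotypes, *Pvalb* does so except for c-MafΔTAM mouse 3 at 9.26 CPM, and *Calb1* in c-MafΔTAM mice falls on both sides of the control range of 248 to 321 CPM.

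Levels can be compared between genes only per length, as RPKM (CPM per kilobase of exon) from the exonic length in the deposited file. In c-Maf fl/fl mice, the order was *Umod* (1024 ± 126 RPKM, SD, n = 4), *S100g* (561 ± 84.4), *Egf* (165 ± 7.61), *Calb1* (58.6 ± 6.24), *Casr* (29.7 ± 3.85), *Slc8a1* (25.5 ± 2.10), *Pvalb* (9.65 ± 1.15), *Trpv5* (6.71 ± 1.09), *Trpm6* (5.15 ± 0.933), and *Trpv6* (0.440 RPKM). The neighbors *Casr* and *Slc8a1*, and *Trpv5* and *Trpm6*, overlapped between mice, and the other neighbors did not. These pairs changed places in c-MafΔTAM mice: *Slc8a1* was at 37.5 ± 6.81 RPKM and *Casr* at 29.6 ± 2.86 RPKM, and *Trpm6* at 5.18 ± 0.662 RPKM and *Trpv5* at 4.82 ± 1.25 RPKM (SD, n = 4 per genotype), again with overlap within each pair. A short gene such as *S100g*, with 480 exonic bases, thus ranked second per length although its CPM was below that of *Slc8a1*.

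**Figure D4:**
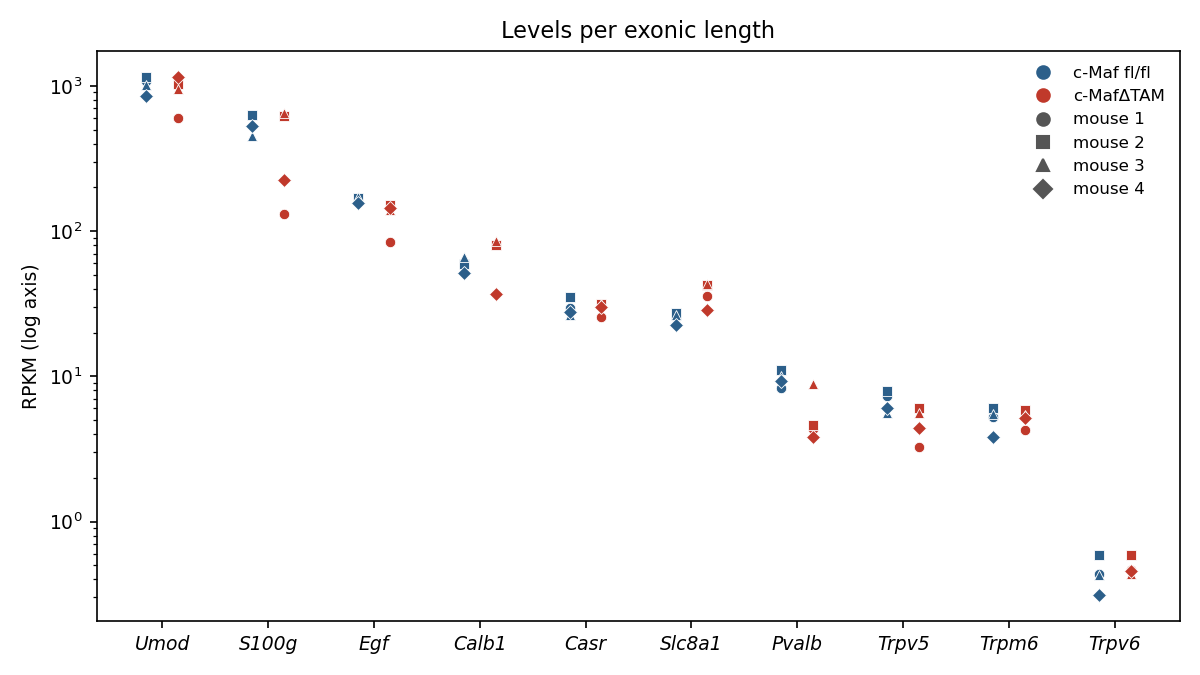
RPKM of the 10 genes in each mouse on a log axis, ordered by the c-Maf fl/fl mean, from *Umod* at 1024 RPKM to *Trpv6* at 0.440 RPKM. The c-MafΔTAM values of *S100g*, between 130.1 and 655 RPKM, spread most.

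Marker genes of the segments that express this set showed no calls by edgeR's quasi-likelihood test, DESeq2, edgeR's exact test, or limma-trend. The fit with *Xist* as a covariate, in which *Trpv5* passed, called 1 marker lower in each of the 3 lists (*Ppp1r1b* in the thick limb, *Ppp1r1a* in the distal convoluted tubule, and *Tfcp2l1* in the connecting tubule and principal cell), and the fit restricted to high *Xist* called *Ptger3* of the thick limb higher. For the thick limb, 0 of 14 tested genes passed (1 higher at an unadjusted *P* under 0.05), with a median log2 fold change of 0.05, beside 0.00 over all tested genes. Their summed level was 1935 to 2788 CPM in c-MafΔTAM and 2155 to 2811 CPM in the controls. For the distal convoluted tubule, 0 of 8 passed (0 at the unadjusted *P*), with a median of -0.04 and sums of 1778 to 2480 and 1822 to 2663 CPM. For the connecting tubule and principal cell, 0 of 9 passed (0 at the unadjusted *P*), with a median of -0.03. *Slc12a1* was at 1655 ± 267 and 1609 ± 200.3 CPM and *Slc12a3* at 1262 ± 224 and 1221 ± 318 CPM (SD, n = 4 per genotype), with log2 fold changes of 0.04 and 0.05 (adjusted *P* = 0.932 and 0.942). The level of *Slc12a3* was lowest in control mice 3 and 4 and c-MafΔTAM mouse 1, the 3 mice with low *Xist*.

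Each gene was therefore also set against *Slc12a1* or *Slc12a3* in the same mouse, as a log2 ratio and without a test. *Slc12a3* does not stand for all cells that make *Trpv5* or *Calb1*, also made in the connecting tubule, or *Egf*, also made in the thick limb. Relative to *Slc12a3*, *Trpv5* ran from -6.51 to -6.04 in c-MafΔTAM mice and from -5.96 to -5.59 in c-Maf fl/fl mice. The genotypes did not overlap in this ratio, whose means differed by -0.57. *Pvalb* relative to *Slc12a3* also separated, at -8.34 to -7.35 against -7.30 to -6.54, a difference of the means of -0.98. These were 2 of the 8 genes set against *Slc12a3*, and 3.60% of all tested genes separated relative to it (5.56% relative to *Slc12a1*). The separation of *Slc8a1* and *Egf*, in contrast, was lost relative to *Slc12a3*, with mean differences of 0.48 and -0.45. *Egf* is also a thick limb gene, and relative to *Slc12a1* it stayed lower in every c-MafΔTAM mouse than in every control. Relative to *Slc12a3*, *S100g* differed by -0.82, *Calb1* by -0.14 (its CPM means differed in the other direction), *Trpv6* by 0.10, and *Trpm6* by -0.05. *Umod* and *Casr*, relative to *Slc12a1*, differed by -0.20 and -0.03. These all overlapped between genotypes.

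**Figure D5:**
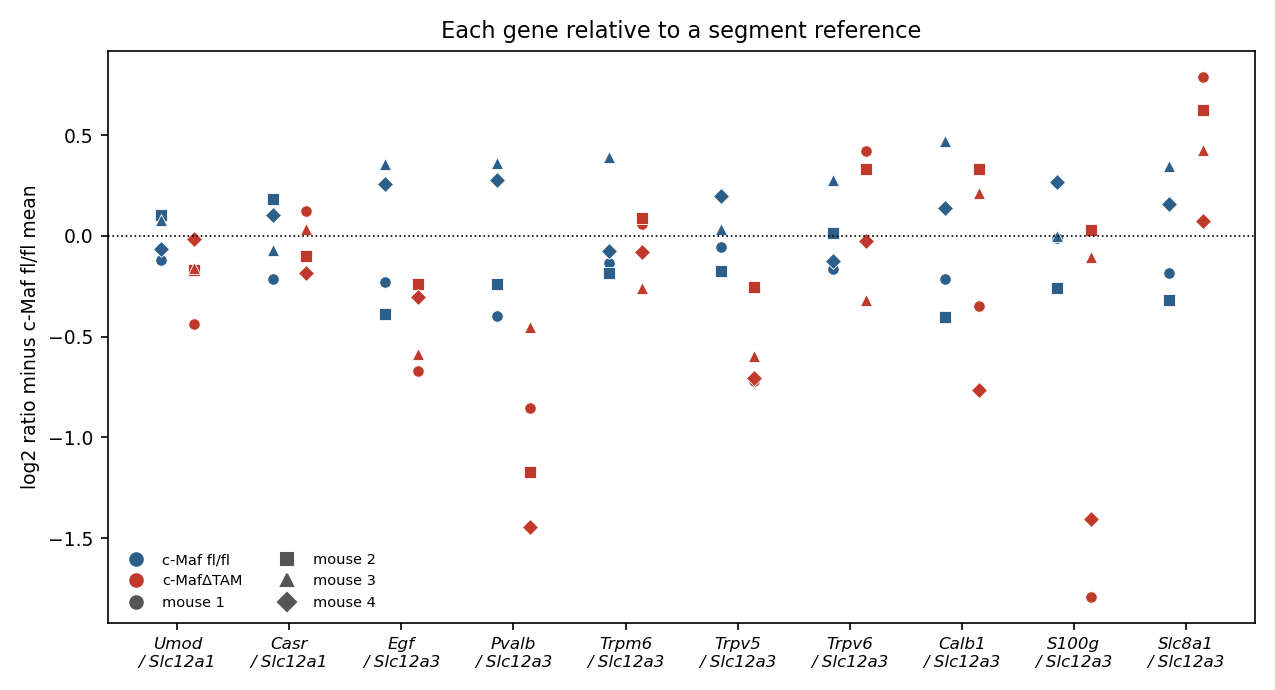
Log2 ratio of each gene to *Slc12a1* or *Slc12a3* in the same mouse, minus the c-Maf fl/fl mean (points, 8 mice). The genotypes do not overlap in *Trpv5* and *Pvalb*, whose means differ by -0.57 and -0.98 (3.60% of all tested genes separate relative to *Slc12a3*), and they overlap in the other 8 genes. *Egf* is plotted relative to *Slc12a3* only.

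Of 37 other calcium and magnesium transport genes, 30 were tested, and their median log2 fold change was 0.00. The quasi-likelihood test called a single one, lower, whereas edgeR's exact test also called *Cldn14* higher and the *Xist* covariate also called *Mrs2* higher. The called gene was *Kcnj16*, which encodes a basolateral potassium channel subunit (Kir5.1) of the proximal and distal tubules, at 361 ± 42.7 CPM in c-MafΔTAM and 562 ± 54.3 CPM in the controls (SD, n = 4 per genotype; log2 fold change -0.64, adjusted *P* = 0.0103). It passed in all 8 fits with 1 mouse left out. The calcium pumps had log2 fold changes of -0.12 for *Atp2b1* (adjusted *P* = 0.562) and 0.37 for *Atp2b4* (adjusted *P* = 0.178). For magnesium, *Cnnm2* was at 66.0 ± 5.53 and 66.0 ± 2.19 CPM (SD, n = 4 per genotype; log2 fold change 0.00, adjusted *P* = 0.996), *Slc41a3* had a log2 fold change of 0.09, and *Fxyd2*, the gene for the γ subunit of the sodium pump, -0.15, none past the threshold. The paracellular claudins of the thick limb, *Cldn16* and *Cldn19*, had log2 fold changes of 0.14 and 0.00 (adjusted *P* = 0.806 and 1.00).

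Of 29 calcium hormone and regulator genes, 27 were tested, and the median log2 fold change was -0.05. Past the threshold, 3 were lower, and 1 more called gene is not reported here. *Pth1r*, the parathyroid hormone receptor gene, fell from 463 ± 32.0 to 332 ± 28.0 CPM (SD, n = 4 per genotype; log2 fold change -0.48, adjusted *P* = 0.0194). *Pcbd1*, which encodes a dimerization cofactor of HNF1 linked to renal magnesium handling, was at 75.1 ± 4.11 CPM in c-MafΔTAM and 106 ± 13.5 CPM in the controls (log2 fold change -0.50, adjusted *P* = 0.0212). The third was *Egfr*, given above. With 1 mouse left out, *Pth1r* passed in 4 of 8 fits and *Pcbd1* in 3. *Pth1r* did not pass with limma-trend (adjusted *P* = 0.0542). Other tools also called genes higher. *Stc2* had a log2 fold change of 0.89 without overlap (adjusted *P* = 0.0527). DESeq2, edgeR's exact test, limma-trend, and both *Xist* fits called it. *Esr1*, at 2.13 without overlap (adjusted *P* = 0.0856), was called by DESeq2 and edgeR's exact test. *Kl*, the gene for the FGF23 coreceptor klotho, had a log2 fold change of 0.14 (adjusted *P* = 0.644). Several of these genes, among them *Pth1r* and *Kcnj16*, are also expressed in the proximal tubule. Its marker list had 2 of 10 genes lower in the quasi-likelihood test, *Slc34a1* (log2 fold change -1.23, adjusted *P* = 0.000217) and *Slc5a12* (-1.71, adjusted *P* = 0.000349), and 0 higher. DESeq2, edgeR's exact test, and the fit restricted to high *Xist* also called *Pck1* lower (-0.67 and adjusted *P* = 0.068 in the quasi-likelihood test). The fit with *Xist* as a covariate called *Kap* higher.

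The remaining lists held few calls. In the EGF family, 1 of 9 tested genes passed, *Egfr*. Of 4 tested uromodulin partners, 0 passed in edgeR's quasi-likelihood test (1 lower at an unadjusted *P* under 0.05, *Hpn*, which DESeq2 called), and of 12 other EF-hand calcium buffers and sensors, 0 passed (1 lower at the unadjusted *P*, 0 with DESeq2, edgeR's exact test, or limma-trend). Among cell types outside the distal tubule, intercalated cells had 0 of 9 genes past the threshold, podocytes 0 of 5, and macrophages 0 of 5 (0 at an unadjusted *P* under 0.05 and 0 by the other 3 tools in each list), whereas endothelium had 1 of 5 lower, *Kdr* (log2 fold change -0.37, adjusted *P* = 0.045), which DESeq2 and the fit with *Xist* as a covariate also called and edgeR's exact test, limma-trend, and the fit restricted to high *Xist* did not. *Star*, the 1 tested gene of the adrenal list, and *Vil1*, the 1 tested gene of the intestine list, which the kidney also expresses, did not pass. The parathyroid, thyroid, and fat lists had 0 genes tested, and *Pth* had 0 counts in every library.

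Across the 8 mice, several of the 10 genes moved together in log2 CPM, as a description over mice of both genotypes that share library depth and composition. Pearson's r was highest for *Trpv5* and *S100g* (0.918), *Egf* and *Umod* (0.860), *Trpv5* and *Egf* (0.851), *Calb1* and *S100g* (0.833), *S100g* and *Egf* (0.811), and *Trpv6* and *Trpm6* (0.799). It was lowest for *Slc8a1* with *Pvalb* (-0.422) and with *Egf* (-0.420). Among 17483 other genes with at least 1 CPM on average, the patterns most like those of the set were, with r over the 8 mice, *Rsph9* (0.992) and *Enpp1* (0.985) for *Trpv5*, *Dapk1* (0.986) and *Supt20* (0.983) for *Slc8a1*, *Lmtk3* (0.965) and *Sec16b* (0.963) for *Pvalb*, *Hoxd9* (0.967) and *Abat* (0.963) for *S100g*, and *Gm17046* (0.972) and *Ccdc28b* (0.948) for *Calb1*. For the other 5, they were *Ino80dos* (0.973) and *Gm26616* (0.965) for *Trpv6*, *Cmya5* (0.951) and *Hadhb-ps* (0.939) for *Trpm6*, *Thsd7a* (0.968) and *Dapk2* (0.957) for *Casr*, *Gm5805* (0.989) and *Rpl37rt* (0.988) for *Egf*, and *Cyp2d22* and *Gm13680* (0.988 each) for *Umod*. With 8 points and 17483 genes, r values of this size are the top of a long list.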

How the data were processed

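Whole kidneys of 4 c-MafΔTAM and 4 c-Maf fl/fl mice were sequenced as 36-base read pairs after depletion of ribosomal RNA. The authors deposited raw counts of reads per gene name, made with featureCounts 2.0.1 on exons of Ensembl release 102 (GRCm38), without normalization. Per the file header, strand was not used (the library kit is directional), each read of a pair was counted separately, and reads on more than 1 gene were dropped. The aligner is not given in the file header. The submitters' processing notes list Subread 2.0.2 and edgeR 3.36.0. The paper describes a CLC Genomics Workbench route, which starts from reads and was not repeated. No column of per-sample values was left unused.

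Genes were kept by filterByExpr, scaled by TMM (factors 0.857 to 1.11), and compared with edgeR 4.0.16's robust quasi-likelihood test without covariates (R 4.3.3, limma 3.58.1), with Benjamini-Hochberg adjustment over all 20149 tested genes at 0.05. The biological coefficient of variation was 0.203. CPM values are TMM-normalized, and log2 CPM used a prior count of 2. Standard errors were taken from the test's F value. No library was a copy of another within sampling noise. The scripts were tested on simulated data, and plots used matplotlib 3.10.9 (Python 3.11.15). Intervals and *P* values measure the spread between these mice.

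The 10 genes and all lists were chosen with earlier results of these data known. The rule for named genes was the 10 genes, *Maf*, *Slc12a1*, *Slc12a3*, the called genes of each list (at most 5 by *P*), fixed genes bearing on a member, and the 2 most alike genes of each. In the hormone and regulator list, 1 called gene is not reported here. *Myh4*, *Ucp1*, *Vil1*, *Star*, *Pth*, *Acta1*, *Myh1*, *Mylpf*, *Ppp1r1b*, *Ppp1r1a*, *Tfcp2l1*, *Ptger3*, *Cldn14*, *Mrs2*, *Stc2*, *Esr1*, *Pck1*, *Kap*, and *Xist* were named after their values were seen. Promoters were RefSeq windows. Alternatives changed the scaling (RLE, upper-quartile, or quantile with limma-trend), the tool (DESeq2 1.42.0, or edgeR's exact test on genes totaling at least 5 counts), the filter (any count in any mouse, or a minimum of 10 per mouse), the covariate (a replicate block, or log2 *Xist*), the mice (high *Xist* alone, or leaving out 1), the genes (no mitochondrial or ribosomal RNA), and the threshold (0.01).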

Additional observations from a re-analysis of the deposited data

Results flagged for a closer look

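Among 20 groups of 4 mice (each of the 10 genes in each genotype), 1 held a value far from the other 3, and chance alone gives about 1. *Pvalb* was at 9.26 CPM in c-MafΔTAM mouse 3, whereas the remaining c-MafΔTAM mice were at 3.95 to 4.83 CPM (ratio of gap to range 0.835, above Dixon's 95% limit). That mouse had 167 *Pvalb* counts, and without it the log2 fold change of *Pvalb* was -1.18 in place of -0.84.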

How the results depend on the processing

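The number of differentially expressed genes, 436 in the quasi-likelihood test, was 886 with DESeq2, 1374 with *Xist* as a covariate, 789 in the mice with high *Xist*, 180 at an adjusted *P* under 0.01, and 239 to 452 with 1 mouse left out (lowest, at 239, 256, and 285, without c-MafΔTAM mouse 3, c-MafΔTAM mouse 2, or control mouse 3). Of the 10 genes, 1 was called lower with DESeq2 (*Pvalb*) and 1 with the covariate (*Trpv5*), and 0 to 1 with a mouse left out (*Pvalb*, without c-MafΔTAM mouse 3). *Slc8a1* was the 1 gene called higher with upper-quartile factors, quantile normalization, DESeq2, genes with at least 1 count, the covariate, or no mitochondrial and ribosomal RNA genes, and 0 to 1 genes were called higher with a mouse left out (without c-MafΔTAM mouse 4). The cause of these differences was not tested. Of 190 values of the 10 genes under the alternatives, 161 kept direction and side of the threshold, 10 passed it in the same direction, and 19 changed sign, all in genes whose log2 fold change was near 0. These were *Trpv6* (-0.0534 with high *Xist*), *Trpm6* (-0.0494 with the covariate, -0.0463 with high *Xist*, and -0.106 to 0.0921 with a mouse left out), *Calb1* (-0.0791 with the covariate and -0.192 to 0.205 with a mouse left out), *Casr* (0.04 with upper-quartile factors, 0.0743 with quantile normalization, 0.0031 with genes of at least 10 counts, and -0.054 to 0.0883 with a mouse left out), and *Umod* (0.0421 with quantile normalization and -0.246 to 0.0399 with a mouse left out). Mice with the same replicate number did not deviate together (r = -0.373, 0.152, -0.110, and -0.331 for numbers 1 to 4). With the replicate number as a block, 129 genes and none of the 10 passed, *Calb1* was at -0.0758 and *Casr* at 0.0012. Under the block, *Kcnj16*, *Pth1r*, *Egfr*, and *Pcbd1* did not pass (adjusted *P* = 0.108, 0.161, 0.0892, and 0.136), and *Cyp27b1* did (log2 fold change -3.33, adjusted *P* = 0.0284).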
